A study of Mus musculus with 6 samples.

Results

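Heme and iron handling was followed through 10 genes, namely HMOX1, HMOX2, BLVRA, BLVRB, FTH1, FTL, TFRC, NCOA4, IREB2 and STEAP3. They were taken by symbol from the 18620 genes that had a row with 1 symbol in the deposited table, and all 10 were found, in 11 rows. TFRC had 2 rows, of which the brighter was used. Libraries from 3 control and 3 anti-PD-1 samples were compared, in mouse subcutaneous tumours grown from Lewis lung carcinoma (LLC) cells, a transplantable lung tumour line, in Matrigel. Per the labels, mice received 250 µg of an anti-PD-1 antibody, which blocks an inhibitory T cell receptor, or of an IgG2a isotype antibody, every 3 days into the peritoneum. The sample labels describe the control as lacking the anti-PD-1 antibody, while the design text of the series names LLC cells left alive 7 days after the antibody, and untreated control cells. Neither the strain and age of the mice nor whether each library came from its own animal is given in the sources used here, so the spread behind each p-value is that of these libraries and may be technical.

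Heme oxygenases open the heme ring and release iron, carbon monoxide and biliverdin, and biliverdin reductases turn biliverdin into bilirubin. Released and imported iron is stored in ferritin shells built from heavy and light chains, and NCOA4 carries ferritin to lysosomes, where its iron is freed. Iron bound to transferrin enters through the transferrin receptor and is reduced in endosomes by STEAP3. Iron regulatory proteins such as IREB2 bind ferritin and receptor mRNAs according to the iron supply. In tumours HMOX1 is known as a stress-inducible gene of tumour cells and macrophages.

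Properties of the deposited table bear on every value below. Its headers name a mouse array, yet 19850 of the 21448 rows with signals carry human Ensembl transcript accessions and 0 carry mouse ones. The chromosome coded in the row identifier equalled that of the chromosome column in 5670 of the 20893 rows that had both. Gene names and positions are therefore those of the file, which go with human accessions. The species behind the signals and the build of the positions are unsettled. Whether each name belongs to the signals beside it was not tested. Signals are on the log2 scale. Library medians lay between 7.71 and 7.77, and libraries of 1 group correlated more closely over rows (0.9955 to 0.9963, 6 pairs) than libraries of different groups (0.9808 to 0.9823, 9 pairs). Signed differences take the anti-PD-1 mean less the control mean, with groups as the sample labels name them. The authors' deposited table carries group averages whose letters go with the opposite signals: among 4887 rows with group means over 0.5 apart, both averages lay within the signals of the opposite letter in 4869 and of their own letter in 5. Should the averages carry the true letters, every direction below turns around. In 106 rows (0.494%) an average lay outside its 3 signals by more than 0.01 or an SD differed from theirs by more than 0.02, even with the letters exchanged, and STEAP3 is 1 of them. Epithelial markers were bright and went both ways. EPCAM had mean signals of 15.30 in control and 14.70 in anti-PD-1 libraries (-0.60, adjusted p = 0.0019 in limma). KRT8 stood at 16.17 and 16.47 (0.30, adjusted p = 0.0269) and KRT18 at 14.79 and 14.97 (0.18, adjusted p = 0.158). Row means had a 25th percentile of 5.08 and a median of 7.74. Of the T cell markers, CD3D (3.70 and 3.81), CD8A (3.75 and 3.73) and CD4 (4.53 in anti-PD-1 libraries, after a fall of 0.46, adjusted p = 0.0108) lay below 5.08 and CD3E (5.66 and 5.79) above it. Of the endothelial markers, PECAM1 (4.32 and 4.25) and CDH5 (4.65 and 4.89) lay below it and VWF (6.39 and 6.59) above. Of the fibroblast markers, COL1A1 was bright (11.10 and 11.46), while PDGFRA (5.12 and 5.33) and DCN (5.72 and 5.74) lay between the 25th percentile and the median. The file places that COL1A1 row on chromosome 17, plus strand, from 50200287 to 50200367. So short a stretch may not stand for the COL1A1 transcript.

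Of the 10 genes, HMOX1 and HMOX2 were lower and BLVRA and NCOA4 higher in libraries labelled anti-PD-1 at an adjusted p of 0.05 in limma, and 6 did not pass. Across the array 29.8% of rows passed, 14.7% higher and 15.1% lower, so a count of 4 of 10 is near the background and says nothing particular of the set. With 1 row per gene, 31.5% of genes passed. The groups did not overlap in 8 of the 10 genes, where 43.5% of all rows behaved so. All 10 genes lay above the median signal of all rows. Shares among rows of like brightness were not computed, so these backgrounds may not be like ones. The median difference over the 10 genes was 0.10, against 0.02 over all 18620 genes. HMOX1 alone of the 10 differed by at least 1.5-fold with an adjusted p under 0.05, a rule met by 17.3% of rows.

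**Figure D1:**
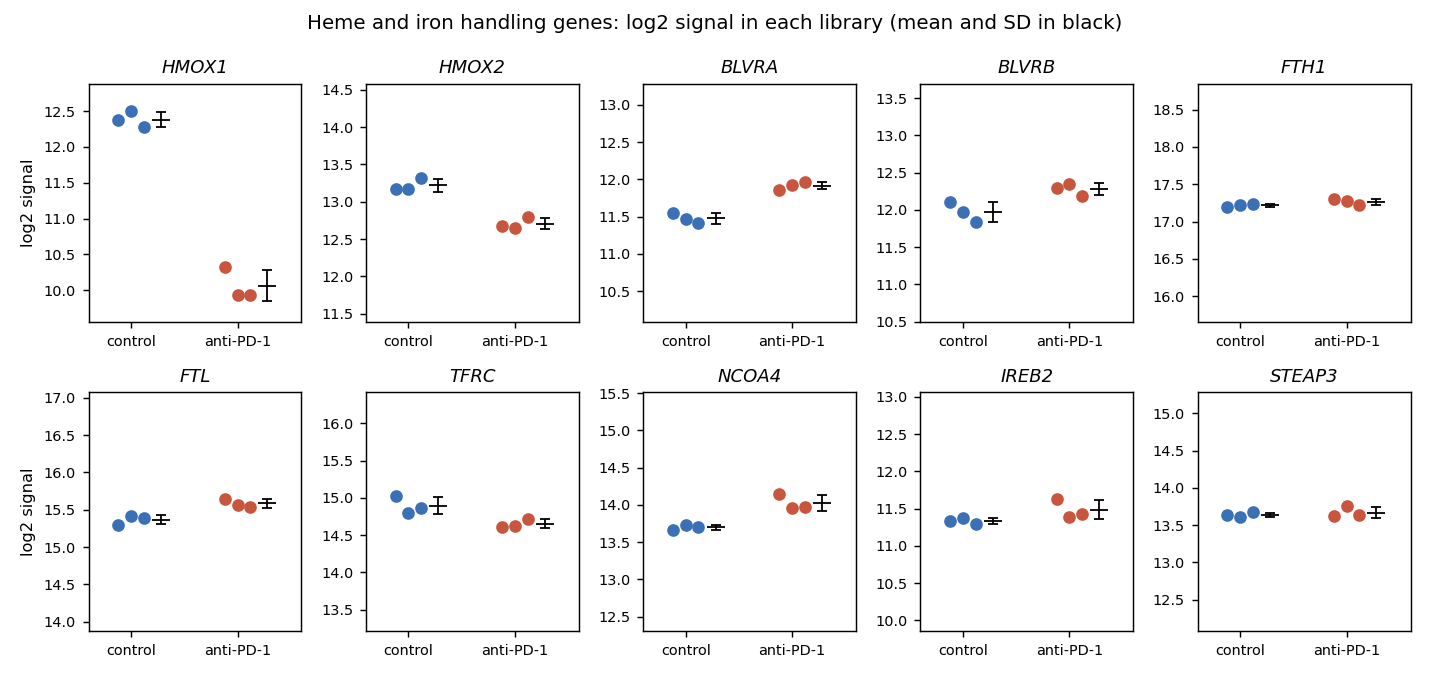
Log2 signal (vertical axes, each spanning at least 3.2 log2 units) of the 10 heme and iron handling genes in the 3 control (blue) and 3 anti-PD-1 (red) libraries. Black bars give the mean and SD. HMOX1 lies between 12.28 and 12.50 in control and between 9.94 and 10.32 in anti-PD-1 libraries, while FTH1 and STEAP3 overlap between groups.

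HMOX1, the inducible heme oxygenase, had log2 signals of 12.37, 12.50 and 12.28 in control replicates 1 to 3 and of 10.32, 9.94 and 9.94 in anti-PD-1 replicates 1 to 3. Every anti-PD-1 library lay below every control library, with a gap between the groups wider than the spread within either. The mean went from 12.38 ± 0.11 to 10.07 ± 0.22 (SD, n = 3 each), a difference of -2.32 ± 0.13 (SE, adjusted p = 4.14e-05), or 4.98-fold lower. A fall of at least 4-fold past the threshold was seen in 0.718% of rows, and HMOX1 ranked 212 of 21448 by the size of its difference. The file places it on chromosome 22, plus strand, from 35380361 to 35394214. In the authors' deposited table the signed fold change was -5.42, with averages named C and P of 9.94 and 12.38 and a false discovery rate of 3.96e-05. By those letters HMOX1 was higher in P, opposite to the direction given here, so the shared minus sign is no second witness to a fall. In bulk material, fewer cells of a type and less RNA per cell cannot be told apart.

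HMOX2, the constitutive heme oxygenase, also fell, by a smaller amount. Its signals were 13.17, 13.17 and 13.32 in control libraries and 12.68, 12.65 and 12.79 in anti-PD-1 libraries, without overlap. The mean went from 13.22 ± 0.09 to 12.71 ± 0.07 (SD, n = 3 each), a difference of -0.51 ± 0.09 (SE, adjusted p = 0.00562), or 1.43-fold lower. The file places HMOX2 on chromosome 16 from 4474690 to 4510347. The log2 ratio of HMOX1 to HMOX2 within a library was -0.80, -0.67 and -1.04 in control libraries and -2.36, -2.71 and -2.85 in anti-PD-1 libraries. This ratio moved by -1.80 without overlap between groups. An exact 2-sided permutation test of 3 against 3 libraries gave p = 0.10, the smallest it allows (0.13 adjusted over the 4 gene pairs compared).

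The biliverdin reductases lay higher. BLVRA, which reduces the main biliverdin isomer made by heme oxygenase, had signals of 11.55, 11.47 and 11.41 in control and 11.86, 11.93 and 11.96 in anti-PD-1 libraries. The groups did not overlap, and the rise was 0.44 ± 0.09 (SE, adjusted p = 0.0082), or 1.36-fold, from a mean of 11.48 ± 0.07 to 11.92 ± 0.05 (SD, n = 3 each). The file places BLVRA on chromosome 7 from 43758673 to 43807342. BLVRB, which reduces other biliverdin isomers and flavins, had signals of 12.11, 11.97 and 11.84 in control and 12.29, 12.35 and 12.19 in anti-PD-1 libraries. These did not overlap either, but the difference of 0.30 ± 0.10 (SE, 95% interval 0.06 to 0.55) did not pass (adjusted p = 0.0678); it passed under 5 other settings and without control replicate 1 (adjusted p = 0.0483). The within-library log2 ratio of BLVRA to BLVRB went from -0.50 ± 0.07 to -0.36 ± 0.11 (SD, n = 3 each), a change of 0.14 (exact permutation p = 0.20).

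The ferritin chains had signals that differed little between groups. FTH1, the heavy chain with ferroxidase activity, had signals of 17.20, 17.22 and 17.24 in control and 17.30, 17.27 and 17.22 in anti-PD-1 libraries. These overlapped, and the difference of 0.04 ± 0.08 (SE, adjusted p = 0.74) had a 95% interval of -0.14 to 0.23 and became -0.01 with each library centred on its median. FTH1 has many near-identical processed copies in mammalian genomes, so its signal may hold more than 1 locus. FTL, the light chain, had signals of 15.30, 15.41 and 15.39 in control and 15.65, 15.57 and 15.54 in anti-PD-1 libraries. Its groups did not overlap, yet the difference of 0.22 ± 0.08 (SE, 95% interval 0.02 to 0.42) did not pass (adjusted p = 0.0988). The within-library log2 ratio of FTH1 to FTL went from 1.85 ± 0.05 to 1.68 ± 0.03 (SD, n = 3 each), a change of -0.18 (exact permutation p = 0.10, the smallest possible) that was -0.09 after quantile normalization.

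NCOA4, the cargo receptor that delivers ferritin to lysosomes, had signals of 13.67, 13.73 and 13.70 in control and 14.15, 13.96 and 13.97 in anti-PD-1 libraries. The highest value was that of anti-PD-1 replicate 1, and the groups did not overlap. The rise was 0.33 ± 0.09 (SE, adjusted p = 0.0339), or 1.25-fold, from a mean of 13.70 ± 0.03 to 14.03 ± 0.11 (SD, n = 3 each). The call was lost without any 1 of the 6 libraries (adjusted p from 0.0626 to 0.0995), with the replicate number as a block (adjusted p = 0.0844) and after median centring (adjusted p = 0.0571). The file places NCOA4 on chromosome 10, minus strand, from 46005088 to 46030714.

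TFRC, the transferrin receptor, had signals of 15.02, 14.80 and 14.86 in control and 14.61, 14.62 and 14.72 in anti-PD-1 libraries. All 3 anti-PD-1 libraries lay below the control libraries, but the difference of -0.24 ± 0.10 (SE, 95% interval -0.47 to -0.02) did not pass (adjusted p = 0.104). The within-library log2 ratio of TFRC, a receptor gene, to FTH1, a storage gene, went from -2.33 ± 0.13 to -2.61 ± 0.10 (SD, n = 3 each). This was a change of -0.29 (exact permutation p = 0.10, the smallest possible). It is a ratio of mRNA signals, and the activity of iron regulatory proteins was not measured. IREB2, the iron regulatory protein that is degraded when iron is plentiful, had signals of 11.34, 11.37 and 11.29 in control and 11.63, 11.39 and 11.43 in anti-PD-1 libraries. Its groups lay next to each other, 11.37 being the highest control and 11.39 the lowest anti-PD-1 value. Its difference was 0.15 ± 0.10 (SE, 95% interval -0.08 to 0.38, adjusted p = 0.311).

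STEAP3, the endosomal ferrireductase, had overlapping signals of 13.63, 13.61 and 13.67 in control and 13.62, 13.75 and 13.63 in anti-PD-1 libraries. Its difference was 0.03 ± 0.08 (SE, 95% interval -0.17 to 0.23, adjusted p = 0.835). In the authors' deposited table its SDs were 0.07 and 0.07, whereas its signals had SDs of 0.03 in control and 0.07 in anti-PD-1 libraries. The same table gave a signed fold change of -1.04 where its averages of 13.63 and 13.65 give 1.01, and a false discovery rate of 0.091 beside a p-value of 0.09. For 26 other rows of the authors' deposited table with a p-value between 0.0895 and 0.0905 the median false discovery rate was 0.197. No direction is drawn for STEAP3.

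**Figure D2:**
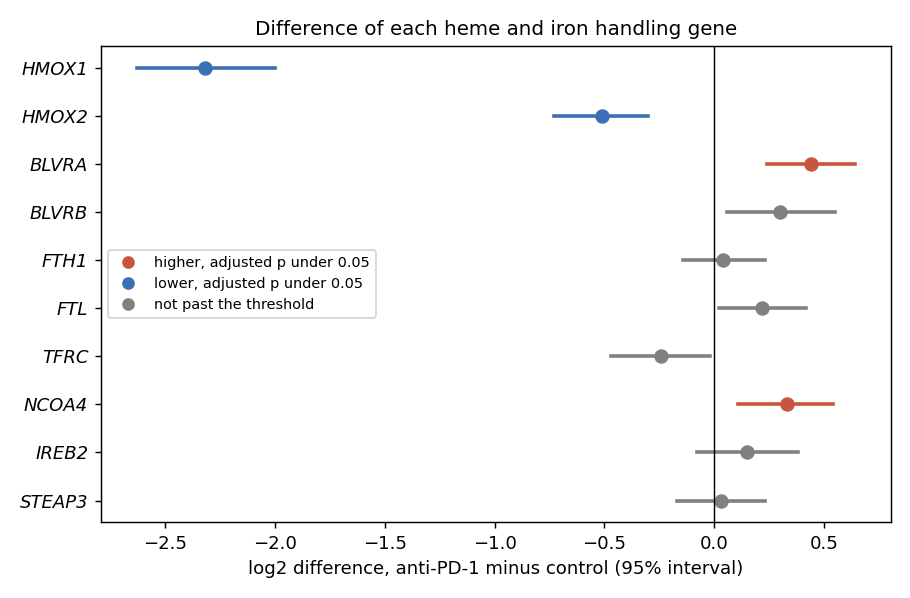
Log2 difference, anti-PD-1 minus control (horizontal axis), of each gene, with its 95% interval from limma over 3 libraries per group. Red and blue mark genes higher or lower at an adjusted p under 0.05, and grey the 6 that did not pass. HMOX1 stands at -2.32, and the other 9 lie between -0.51 and 0.44.

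Upstream sequences of the other 3 genes that passed are printed to show the promoter side of the pathway, from RefSeq for the mouse (GRCm38.p6), the organism of the sample labels. The promoter table held entries for 9 of the 10 genes, and none was printed for Hmox1. Each sequence is the 250 bases before the start site, on the plus strand, and for Hmox2 and Ncoa4 it belongs to the last of 3 listed start sites. Capitals mark matches, on either strand, to the antioxidant response element core bound by NRF2 (TGACNNNGC), the E-box (CACGTG), the TATA box (TATAAA) or the GC box (GGGCGG).
Hmox2, chr16:4756696-4756945: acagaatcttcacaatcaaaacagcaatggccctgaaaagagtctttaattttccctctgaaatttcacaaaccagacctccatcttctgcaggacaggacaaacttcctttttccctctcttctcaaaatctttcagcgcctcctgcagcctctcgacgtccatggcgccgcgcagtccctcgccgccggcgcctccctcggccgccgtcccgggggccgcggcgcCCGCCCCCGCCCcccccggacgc
Blvra, chr2:127070407-127070656: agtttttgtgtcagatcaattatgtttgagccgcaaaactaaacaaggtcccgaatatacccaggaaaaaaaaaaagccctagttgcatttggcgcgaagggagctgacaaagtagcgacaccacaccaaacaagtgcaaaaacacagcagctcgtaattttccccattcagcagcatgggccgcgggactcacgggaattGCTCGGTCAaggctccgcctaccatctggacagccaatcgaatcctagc
Ncoa4, chr14:32165539-32165788: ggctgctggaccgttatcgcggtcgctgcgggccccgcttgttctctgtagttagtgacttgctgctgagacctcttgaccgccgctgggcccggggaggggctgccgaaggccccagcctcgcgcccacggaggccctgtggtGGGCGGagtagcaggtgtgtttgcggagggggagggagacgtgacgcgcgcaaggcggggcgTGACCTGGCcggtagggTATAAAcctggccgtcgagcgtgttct
Hmox2 held 2 GC boxes, starting 23 and 17 bases before the start site. Blvra held 1 antioxidant response element core, 49 bases before the start site. Ncoa4 held 1 such core at 44, a TATA box at 27 and a GC box at 106 bases. The other 2 windows of Hmox2 and of Ncoa4, which are not printed, held 0 matches to these motifs. Among 32851 mouse promoter windows of this length, 10.2% held the antioxidant response element core, 6.02% the E-box, 12.4% the TATA box and 32.7% the GC box. A match is a description of letters and not of a bound site.

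Genes that act with these 10 were taken from 8 lists, and each count is given beside the share of all 18620 genes that passed, which was 31.5% (15.7% higher and 15.7% lower). No test of a list was made. Genes above the median signal of all rows ran from 9 of 19 (iron uptake, export and reduction) to 25 of 28 (mitochondrial iron and iron-sulfur assembly). The share that passed among rows of like brightness was not computed, so the 31.5% may not be a like background. Of the regulators of HMOX1, BACH1 and MAFK were higher in libraries labelled anti-PD-1. BACH1, a repressor of HMOX1 that heme inactivates, had signals of 10.23, 10.09 and 10.17 in control and 11.15, 11.10 and 11.25 in anti-PD-1 libraries. It rose by 1.00 ± 0.09 (SE, adjusted p = 0.000245). MAFK, a small MAF protein that pairs with BACH1 or NRF2 on DNA, had signals of 7.88, 8.10 and 8.14 in control and 9.59, 9.76 and 9.33 in anti-PD-1 libraries, a rise of 1.52 ± 0.14 (SE, adjusted p = 0.000263). Of the 10 heme-responsive regulators listed, 3 rose and 1 fell (40% passed, against 31.5% of all genes), with a list median of 0.05. The heme-binding clock receptors split, NR1D2 rising by 0.66 (adjusted p = 0.00393) and NR1D1 falling (-0.67, adjusted p = 0.0278), a call lost without any 1 anti-PD-1 library (adjusted p = 0.0697, 0.0576 and 0.087). NFE2L2, which encodes NRF2, stood at 0.12 (adjusted p = 0.377) and its inhibitor KEAP1 at -0.15 (adjusted p = 0.275). BACH2 (0.10, adjusted p = 0.684), MAFF (-0.23, adjusted p = 0.482) and MAFG (-0.20, adjusted p = 0.333) did not pass either. NFE2L2, KEAP1, BACH2, MAFF and MAFG were chosen for mention after their values were seen. The part of any regulator in the HMOX1 difference was not tested.

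Other targets of NRF2 went both ways, with 2 of 18 higher and 5 lower and a list median of -0.12. The share that passed, 38.9%, was near the 31.5% of all genes. GCLM, the regulatory subunit of glutathione synthesis, had signals of 10.51, 10.72 and 10.63 in control and 9.07, 9.32 and 9.32 in anti-PD-1 libraries, and fell by 1.38 (adjusted p = 0.000154). The exporter ABCC3 (-1.33) and glutathione reductase GSR (-1.26) fell as well. TXNRD1, thioredoxin reductase, rose by 0.66 (adjusted p = 0.00232). A trended robust prior raised the count to 3 higher and 8 lower. The share of all genes that passed under that prior is not given here, and the 31.5% is no background for it.

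Enzymes of heme synthesis went both ways. Of 9 listed, 3 fell and 2 rose, with a list median of -0.10 (55.6% passed, against 31.5% of all genes). ALAS1, the rate-limiting enzyme of heme synthesis outside red cells, had signals of 12.62, 12.34 and 12.65 in control and 11.57, 11.81 and 11.74 in anti-PD-1 libraries, a difference of -0.83 ± 0.12 (SE, adjusted p = 0.0023). CPOX (-0.55, adjusted p = 0.0346) fell too, while ALAD (0.77, adjusted p = 0.028) and UROS (0.33, adjusted p = 0.0446) rose. Leaving out single libraries brought the 5 calls to between 2 and 4: 2 without anti-PD-1 replicate 2 or 3, and 3 without anti-PD-1 replicate 1 or control replicate 1 or 3. The call of UROS was lost without any 1 library (adjusted p from 0.0561 to 0.13), that of ALAD without any 1 anti-PD-1 library (adjusted p = 0.0838, 0.0638 and 0.0718), and that of CPOX without anti-PD-1 replicate 2 or 3 or control replicate 1 or 3 (adjusted p = 0.107, 0.102, 0.0848 and 0.0802).

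Heme carriers and binders went both ways too, with 5 of 13 higher and 3 lower and a list median of -0.14 (61.5% passed, against 31.5% of all genes). FLVCR1, known as a heme exporter, had signals of 10.95, 10.95 and 10.93 in control and 9.86, 10.10 and 10.07 in anti-PD-1 libraries (-0.93 ± 0.10 SE, adjusted p = 0.000482). Its relative FLVCR2 went the other way, from 9.45, 9.22 and 9.34 to 10.45, 10.46 and 10.24 (1.05 ± 0.11 SE, adjusted p = 0.000468). The transporter ABCG2 fell (-1.05, adjusted p = 0.000494). LRP1, a receptor for heme bound to hemopexin among many ligands, rose by 2.23 ± 0.20 (SE, adjusted p = 0.000268), and the heme-binding membrane protein PGRMC2 rose by 1.24 (adjusted p = 7.22e-05).

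Among 19 genes of iron uptake, export and reduction 7 rose and 1 fell, with a list median of 0.11 (42.1% passed, against 31.5% of all genes, 15.7% of them higher). CYBRD1, a membrane ferrireductase of iron uptake, had signals of 6.22, 6.51 and 5.39 in control and 8.88, 9.20 and 8.95 in anti-PD-1 libraries, a rise of 2.97 ± 0.28 (SE, adjusted p = 0.000311), or 7.84-fold. STEAP1, a relative of STEAP3, had signals of 12.99, 12.82 and 12.87 in control and 11.26, 11.38 and 11.29 in anti-PD-1 libraries (-1.58 ± 0.09 SE, adjusted p = 4.08e-05). LCN2, which binds iron-carrying siderophores, rose by 1.26, the lysosomal channel MCOLN1 by 0.91 and the metal importer SLC39A8 by 0.71. SLC40A1, the iron exporter ferroportin, was chosen for mention after its values were seen. Its signals were 8.10, 6.95 and 7.93 in control and 9.12, 9.35 and 9.19 in anti-PD-1 libraries, a rise of 1.56 ± 0.29 (SE, adjusted p = 0.0066) with control replicate 2 lowest. STEAP4 is another row whose deposited averages or SDs do not follow from its signals.

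**Figure D3:**
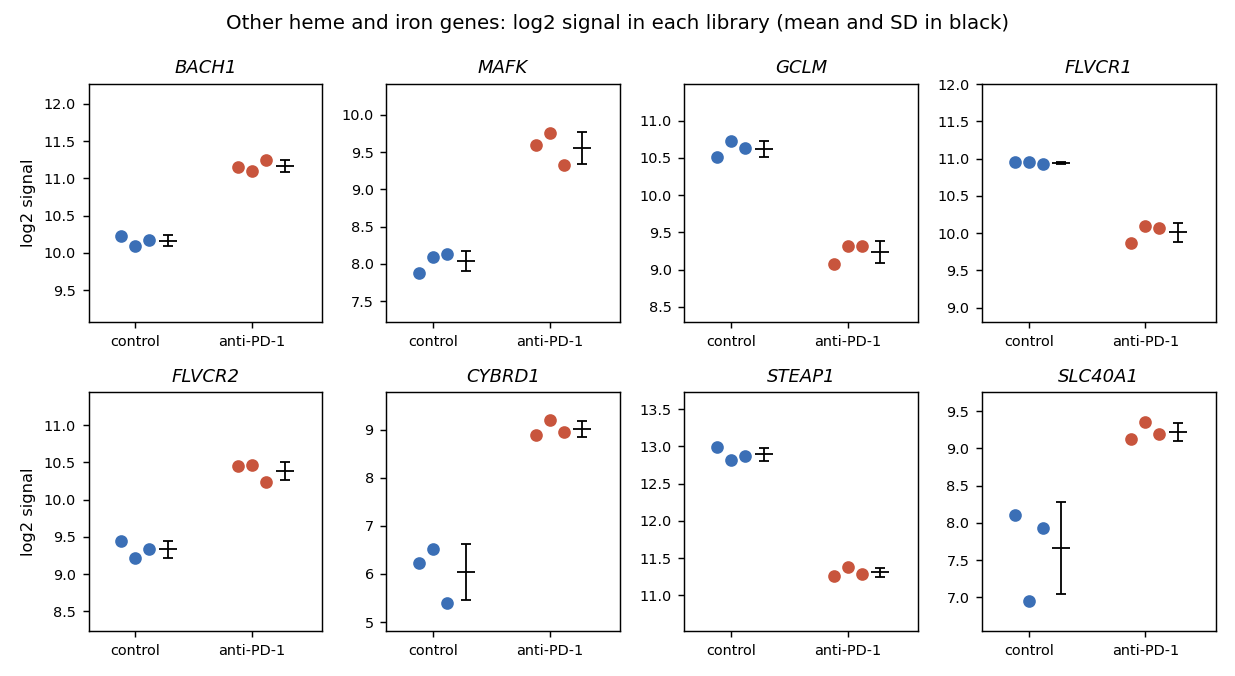
Log2 signal (vertical axes) of 8 other heme and iron genes in the 3 control (blue) and 3 anti-PD-1 (red) libraries, with mean and SD in black. BACH1, MAFK, FLVCR2, CYBRD1 and SLC40A1 are higher and GCLM, FLVCR1 and STEAP1 lower in every anti-PD-1 library.

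In the sensing of iron, FBXL5, the subunit that marks IREB2 for degradation, rose by 0.48 ± 0.10 (SE, adjusted p = 0.00926) and PCBP1, a chaperone that loads iron into ferritin, fell (-0.47 ± 0.09 SE, adjusted p = 0.00645). The other 4 of 6 measured genes of that list did not pass (33.3% passed, against 31.5% of all genes), among them ACO1, the second iron regulatory protein, at 0.24 (adjusted p = 0.0691). Genes of mitochondrial iron and iron-sulfur assembly were lower where they passed limma's threshold, with 13 of 28 falling and 0 rising (0 rising also at an unadjusted p under 0.05) and a list median of -0.28. The list also holds genes of cytosolic iron-sulfur assembly, and CIAO1 and NUBP1 of these are among the falls. Over all genes 15.7% fell and 15.7% rose. Leaving out single libraries brought the 13 to between 8 and 10. The 8 came without anti-PD-1 replicate 2, with 0 rising. The falls ran from -0.27 to -1.41 and included ABCB8, an inner membrane transporter (-1.41, adjusted p = 0.0004), BOLA3 (-0.95, adjusted p = 0.000325), and the scaffold factors NUBP1 (-0.74) and NFU1 (-0.59). The assembly genes NFS1, ISCU and ISCA1 stood at 0.00, 0.21 and 0.18 and did not pass; these 3 were chosen for mention after their values were seen.

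**Figure D4:**
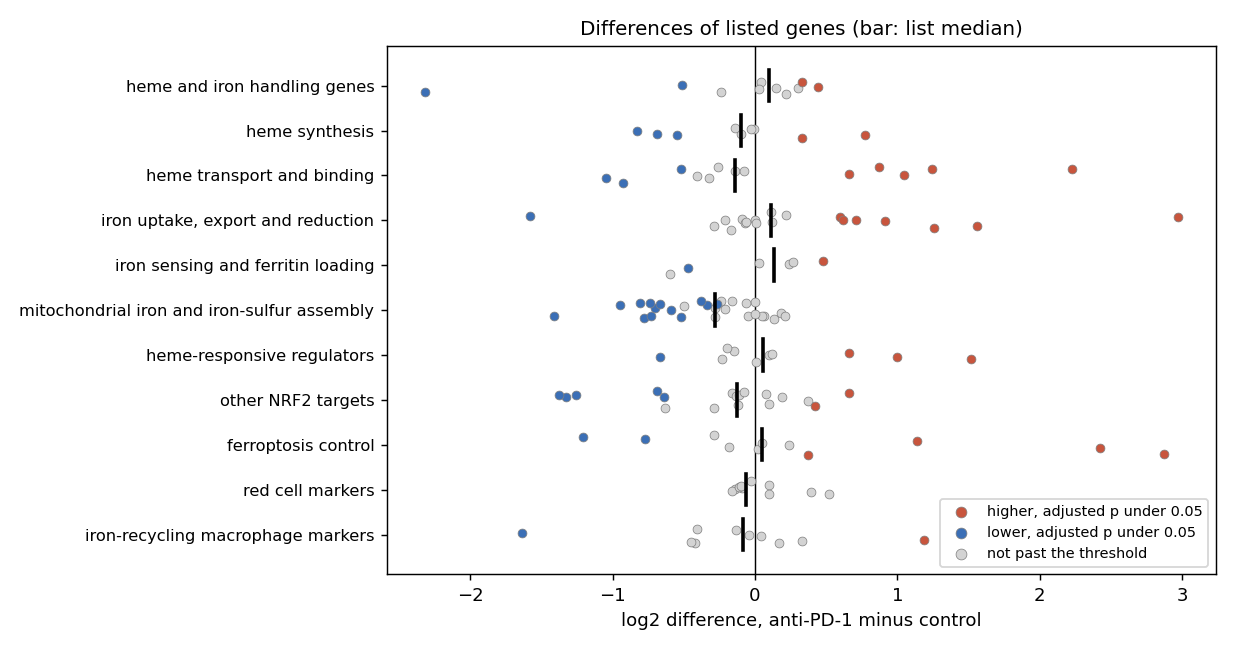
Log2 difference, anti-PD-1 minus control (horizontal axis), of each measured gene in 11 lists, 1 point per gene. Red and blue mark genes higher or lower at an adjusted p under 0.05, grey those that did not pass, and black bars the list medians. The list of mitochondrial iron and iron-sulfur assembly, which includes cytosolic assembly genes, has 13 blue and 0 red points.

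Markers of cells that handle heme in bulk were set beside the HMOX1 result. Of 10 markers of iron-recycling macrophages, 5 lay below 5.08, the 25th percentile of row means, and 3 above the median of 7.74, with 1 falling, 1 rising and 8 not passing. Their summed level, which CD68 dominates, on the log2 scale ran from 14.41 to 14.53 in control and from 12.87 to 13.14 in anti-PD-1 libraries. CD68, a lysosomal protein, was the brightest, at 14.40 ± 0.07 and 12.76 ± 0.19 (SD, n = 3 each), a fall of 1.64 (adjusted p = 9.46e-05), whereas CD14 rose by 1.19 (adjusted p = 0.0019). Without CD68 the summed level of the other 9 ran from 10.07 to 10.25 in control and from 9.96 to 10.41 in anti-PD-1 libraries, and the median difference of all 10 was -0.09. The markers ADGRE1 (3.62 and 3.79), LYZ (4.48 and 4.51) and VSIG4 (4.54 and 4.08) were dim in both groups, whereas CSF1R, the receptor of a macrophage growth factor, had mean signals of 9.41 and 8.99 (adjusted p = 0.141), above the median of all rows. CD163, the hemoglobin receptor of such macrophages, stood at 6.75 and 6.34 (adjusted p = 0.119). The part of these cells in the HMOX1 difference was not tested. Of 10 red cell markers 6 lay below 5.08, and 0 passed; HBA1 (7.77 and 7.87) and HBA2 (6.99 and 6.96), near-identical copies, were the brightest, and the summed level ran from 8.69 to 9.21 in control and from 8.68 to 9.29 in anti-PD-1 libraries. At an unadjusted p under 0.05 HBB alone passed among these, at 0.52 (adjusted p = 0.0745).

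The genes most like HMOX1 over the 6 libraries were sought by root mean square distance after each row was centred on its mean. Symbols of uncharacterised kinds (such as LOC, LINC, FAM, KIAA and open reading frame names) and of antisense RNAs were skipped, and nearer genes may be among them. The 3 nearest of the rest were UBE2C, a ubiquitin-conjugating enzyme of mitosis (0.10), BUB1, a spindle checkpoint kinase (0.12), and SPAG5, a spindle protein (0.12). UBE2C had signals of 12.89, 13.10 and 13.03 in control and 11.09, 10.73 and 10.71 in anti-PD-1 libraries. Their differences were -2.16 for UBE2C, -2.28 for BUB1 and -2.53 for SPAG5. With 2 groups of 3 libraries the measure follows mainly the group difference.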

How the data were processed

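Clariom S arrays were summarised by the authors as gene-level log2 signals using SST-RMA, per the file headers. The submitters' processing notes name Transcriptome Analysis Console, without a version. The authors' deposited table also holds log2 averages, SDs as other columns, a signed fold change, per the file headers, treated here as a score, and p-values with false discovery rates. Of 22206 rows, 21448 had signals, equal to the series value table (largest difference 0). No scanner intensity was used here, so the number of arrays and rounding to 2 decimals limit precision. RNA input was 250 ng, per the labels.

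A 2-sided model with group alone was fitted to the 6 libraries in R 4.3.3 using limma 3.58.1 (lmFit and eBayes), with p-values adjusted by Benjamini-Hochberg over all 21448 rows, threshold 0.05. Each gene was represented by its row of highest mean. The 4 within-library ratios used exact permutation tests (scipy 1.17.1). Members and lists were chosen with earlier results of these data known; 4 listed genes were found by older symbols, and PCBP2 was not analysed here. All 10 members were named, and of each other list up to 5 past the threshold with the smallest p, or the 2 brightest where none passed; a few that this rule takes are not reported here. Replicate numbers did not pair libraries (correlations of deviations 0.013, -0.024 and 0.013). Alternatives were other normalizations, filters, priors, weights, a replicate block, thresholds and removal of each library.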

Additional observations from a re-analysis of the deposited data

How the results depend on the processing

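Of 159 member differences recomputed under the alternatives, 138 kept their direction and their side of the threshold. HMOX1, HMOX2 and BLVRA did so in each alternative run. NCOA4 no longer passed with median centring (0.28), with a replicate block (0.33) or without any 1 library (0.27 to 0.36), and the cause was not tested. BLVRB passed with array weights (0.33), quantile normalization (0.33), rows below the 25th percentile left out (0.30), rows below the median left out (0.30) and a trended robust prior (0.30), and ranged from 0.24 to 0.37 without single libraries, passing without control replicate 1. FTL (0.22) and TFRC (-0.24) passed with rows below the median left out and with a trended robust prior. Reversed, without a call, were FTH1 (-0.01) and STEAP3 (-0.02) with median centring, and STEAP3 without anti-PD-1 replicate 2 (-0.01), its range without single libraries being -0.01 to 0.05. The count of 4 changed members became 7 with rows below the median left out and with a trended robust prior (4 higher and 3 lower each). The share of all rows that passed under those settings is not given here, so this 7 has no background beside it and is not read as a result about the members. The count was 1 with a further limit of 1.5-fold, fewer by construction, and 3 to 4 without single libraries. Over 114 other heme, iron and redox genes 53 passed (46.5%, against 31.5% of all genes; 24 higher, 29 lower), 41 to 48 without single libraries. Quantile normalization moved the ratio changes of FTH1 to FTL to -0.09 and of TFRC to FTH1 to -0.40. A replicate block gave 3 changed members and changed the call of NCOA4 alone among the 10; the library most like a given one in its deviations had the same number in 2 of 6 cases. Omission of the 106 rows in conflict, chosen after seeing the data, left 4 members called.

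Of 39 listed genes past the threshold that were followed, 35 kept their call in each alternative run that held them. The others were UROS, ALAD, CPOX and NR1D1. With rows below the median left out, CYBRD1, LCN2 and ABCB8 were absent and could not be followed. Among counts of single lists, 158 of 170 stayed within 1.5 times. Exceptions were those of heme synthesis without single libraries (2 to 4) and at an adjusted p of 0.01 (2). The list of mitochondrial iron and iron-sulfur assembly moved at 0.01 (7) and without anti-PD-1 replicate 2 (8), its range without single libraries being 8 to 10. Iron uptake moved with rows below the median left out (5), and other NRF2 targets with a trended robust prior (11). Shares of all genes under these settings are not given here. Red cell markers moved with array weights (1) or without control replicate 1 (1).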

Other observations

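Genes that control ferroptosis, a form of iron-dependent cell death, were measured beside the iron genes. Of 11 listed, 4 rose and 2 fell (54.5% passed, against 31.5% of all genes), with a list median of 0.05. PTGS2, a cyclooxygenase used as a marker of ferroptotic tissue, rose by 2.87 ± 0.19 (SE, adjusted p = 6.48e-05), CHAC1, a glutathione-degrading enzyme, by 2.42 (adjusted p = 0.00017) and SAT1, a polyamine acetyltransferase, by 1.14 (adjusted p = 0.000112). The lipid enzyme LPCAT3 (-0.77, adjusted p = 0.00166) and DHODH, an enzyme of pyrimidine synthesis that also reduces ubiquinone (-1.21, adjusted p = 0.000142), fell. GPX4, the peroxidase that repairs lipid peroxides, stood at 15.25 ± 0.15 and 15.50 ± 0.03 (SD, n = 3 each; adjusted p = 0.128) and was named after its values were seen.

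The second TFRC row, which covers 425 bases of the same locus, was dim, at 5.01 in control and 4.52 in anti-PD-1 libraries (adjusted p = 0.201). Ferritin relatives were dim as well: FTHL17 stood at 6.33 and 6.69 (adjusted p = 0.0679) and the pseudogene FTH1P18 at 4.62 and 4.90 (adjusted p = 0.221).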
